A study of Vitis vinifera with 2 samples.

Results

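A small group of transposable elements (TEs) carried little or no CG or CHG methylation in either tissue of grapevine (Vitis vinifera cv. Chardonnay) that was profiled by whole-genome bisulphite sequencing. These unmethylated TEs were defined as TEs listed for both the CG and the CHG context in which all 4 values, CG and CHG in embryogenic callus (EC) and in leaf, lay under 20%. The name refers to CG and CHG alone, and CHH was free to take any level. They numbered 933, which is 1.05% of the 88669 TEs listed for both contexts. A further 95582 of the 184251 TEs listed in any context had no value for CG, for CHG or for both and could not be assessed. Of the unmethylated TEs, 288 were genic, meaning that they overlap a gene annotation, and 645 were intergenic.

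EC is a culture of dividing, dedifferentiated cells that is able to form somatic embryos. It was started from Chardonnay anthers, grown in the dark, and harvested as proliferating callus pooled from several dishes. The leaf library came from pooled young leaves of the same vines. There was 1 library per tissue, so no difference between EC and leaf has a replicate check, no test was possible, and TEs are not replicates of a tissue. The deposited tables hold 1 methylation fraction per TE and library, shown here as a percentage. They give no read numbers. Beyond the authors' minimum coverage, the depth behind each value is unknown, and no interval for a methylation level can be given. The genes and families of the TEs are not analysed here.

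Methylated cytosines in plants are sorted by the bases that follow them into CG, CHG and CHH, H being any base other than G, and silenced TEs usually carry all of these. What is known of the enzymes comes largely from Arabidopsis, where MET1 keeps up CG methylation and CMT3 keeps up CHG methylation in a loop with a histone mark of silent chromatin. In CHH, DRM2 is directed by small RNAs, mainly to short TEs and the edges of long ones, while CMT2 acts inside long heterochromatic TEs. CHH was not used to choose the unmethylated TEs, but it was measured in the same 2 libraries.

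The values that defined the group were mostly far below the limit. For genic unmethylated TEs the mean CG level was 3.98% in EC and 3.15% in leaf, and the mean CHG level was 1.70% in EC and 0.737% in leaf. For intergenic unmethylated TEs the mean CG level was 5.16% in EC and 2.76% in leaf, and the mean CHG level was 2.12% in EC and 1.20% in leaf. All 4 values were listed at 0 in 159 unmethylated TEs, of which 62 were genic and 97 intergenic. The largest of the 4 values was under 5% in 482 TEs (51.7%), from 5% to under 10% in 158, from 10% to under 15% in 160 and from 15% to under 20% in 133. It was EC CG in 420 TEs, leaf CG in 178, EC CHG in 115 and leaf CHG in 61, leaving out the TEs with all 4 values at 0 and counting other ties once under the first of these. These values chose the group and are given as a description alone.

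The limit of 20% fell within a continuous range of levels. The genic TEs just inside it lay at chr13:24263040-24263924, with CG at 19.98% in EC and 0% in leaf, and at chr11:1487872-1488799, with CG at 19.67% in EC and 12.8% in leaf. Those just outside it, at chr11:2948309-2948423 and chr8:4282453-4282823, each had EC CG of exactly 20%, against 7.41% and 0% in leaf. The intergenic TEs just inside it were chr16:751245-751370, with CHG at 4.82% in EC and 19.97% in leaf, and chr18:11181207-11181733, with CG at 19.81% in EC and 0.780% in leaf. Just outside lay chr17:1314486-1314926, with CG at 20% in EC and 8.33% in leaf, and a TE from 1614720 to 1615032 on the unplaced sequence of chromosome 18, with CG at 2.94% in EC and 20% in leaf. Other TEs were kept out by 1 value alone, which was EC CG in 221 of them, leaf CG in 291, EC CHG in 22 and leaf CHG in 13.

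Being unmethylated in one tissue did not always carry over to the other. In EC 1372 TEs had both CG and CHG under 20%, and 68.0% of them were also under it in leaf. In leaf 1455 TEs had both under 20%, and 64.1% of them were also under it in EC. Of the TEs low in EC, 68.9% of the genic (288 of 418) and 67.6% of the intergenic ones (645 of 954) were also low in leaf, and of the TEs low in leaf, 79.6% of the genic (288 of 362) and 59.0% of the intergenic ones (645 of 1093) were also low in EC.

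Unmethylated TEs made up 1.38% of genic TEs (288 of 20921) and 0.952% of intergenic TEs (645 of 67748). Genic TEs were thus 30.9% of the unmethylated TEs (Wilson 95% interval 28.0 to 33.9, which treats TEs as independent and covers counting error only), beside 23.6% of all TEs listed for CG and CHG. Among unmethylated TEs of at least 500 bp the genic share was 25.2%, beside 23.1% of all assessed TEs of that length. The unmethylated TEs were found on 19 of 19 chromosomes, where they made up from 0.740% of assessed TEs on chromosome 10 to 1.38% on chromosome 4. On sequences without a position on a chromosome they made up 0.449%, and 18 of them lay there.

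Unmethylated TEs were short. Their median length was 192.5 bp in the genic class and 290.0 bp in the intergenic class, against 702 bp and 736 bp for other genic and other intergenic TEs listed for CG and CHG. The share of TEs that were unmethylated was lower in each longer length class. Among genic TEs it was 11.6% under 100 bp (71 of 613), 3.66% from 100 to under 200 bp, 1.52% from 200 to under 500 bp, 0.939% from 500 to under 1000 bp, 0.247% from 1000 to under 2000 bp and 0 of 3376 at 2000 bp or more, which allows a share of up to 0.0889%. Among intergenic TEs it was 2.76% under 100 bp (44 of 1594), 2.28% from 100 to under 200 bp, 1.68% from 200 to under 500 bp, 0.794% from 500 to under 1000 bp, 0.235% from 1000 to under 2000 bp and 0.0666% (8 of 12014) at 2000 bp or more. Genic and intergenic TEs differed most under 100 bp and were close to each other from 200 bp upwards. Whether a TE could be assessed also moved with length, since 11.7% of listed genic TEs under 100 bp and 98.2% of those of 2000 bp or more had values for both CG and CHG. The part of this filter on coverage in the trend was not tested.

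**Figure D1:**
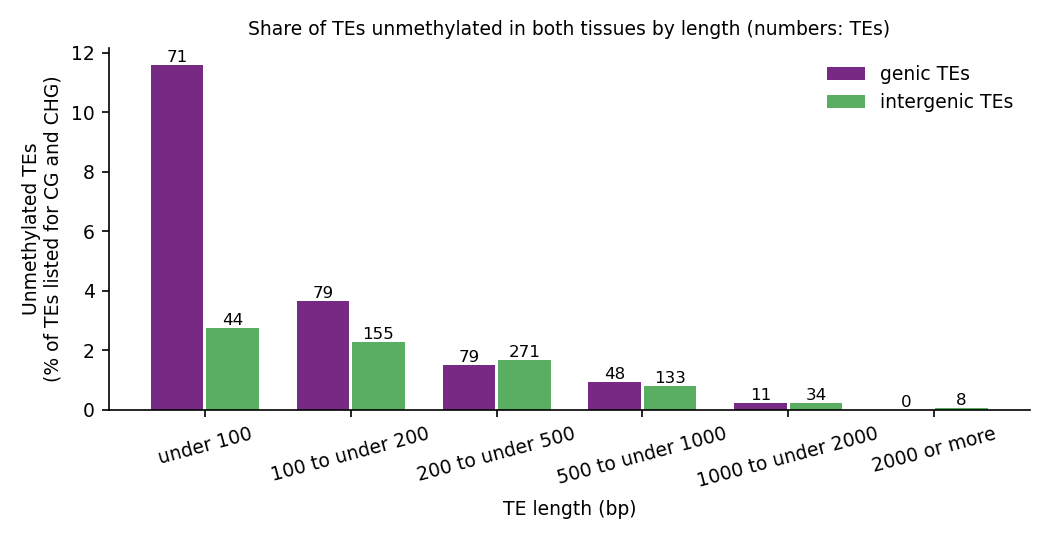
Share of TEs that were unmethylated in both tissues, as a percentage of TEs listed for CG and CHG (y axis), in 6 classes of TE length in bp (x axis), with bars for genic and intergenic TEs and the count of unmethylated TEs on each bar. The share runs from 11.6% of genic and 2.76% of intergenic TEs under 100 bp to 0 of 3376 genic TEs and 0.0666% of intergenic TEs at 2000 bp or more.

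The next question was whether these TEs took part in the CHH methylation that is widespread in EC. Of the 933 unmethylated TEs, 925 were also listed for CHH, 286 of them genic and 639 intergenic. Mean CHH methylation of genic unmethylated TEs was 2.26% in EC and 0.163% in leaf, a difference of 2.09 percentage points with a standard deviation over TEs of 4.39. Mean CHH methylation of intergenic unmethylated TEs was 3.15% in EC and 0.234% in leaf, a difference of 2.92 percentage points (standard deviation 5.47). The median differences were smaller, at 0.455 and 0.880 percentage points, so the means were carried by a minority of TEs with higher CHH levels. On each of the 19 chromosomes mean CHH of unmethylated TEs was above leaf in EC, where it lay from 1.24% on chromosome 15 to 4.79% on chromosome 4.

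These CHH levels were low beside those of other TEs. Other genic TEs listed in all 3 contexts averaged 19.6% in EC and 2.41% in leaf, and other intergenic TEs averaged 36.7% in EC and 3.51% in leaf. The difference of EC minus leaf in unmethylated TEs, less that in other TEs, was -15.1 percentage points in the genic class and -30.2 in the intergenic class. With the other TEs weighted to the length classes of the unmethylated TEs, it was -12.3 percentage points in the genic class and -29.2 in the intergenic class. CHH of EC lay at least 10 percentage points above leaf in 14 of 286 genic unmethylated TEs (4.90%), beside 60.3% of all genic TEs listed in 3 contexts. The count was 53 of 639 intergenic unmethylated TEs (8.29%), beside 93.9% of all intergenic TEs. Taking the classes together it was 67 of 925 unmethylated TEs, beside 86.0% of all TEs. No test stands behind these counts.

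Most unmethylated TEs stayed close to the floor in EC as well. EC CHH was under 1% in 177 genic unmethylated TEs (61.9%) and 328 intergenic ones (51.3%), against 4.79% of other genic and 0.430% of other intergenic TEs. CHH was higher in EC than in leaf in 702 of the 925 unmethylated TEs (75.9%), beside 99.0% of all TEs listed in 3 contexts, and it was equal in 148 unmethylated TEs and lower in 75. It was listed at 0 in EC in 188 and in leaf in 514 of them. All 6 values were 0 in 66 unmethylated TEs, 36 genic and 30 intergenic. Values of 0 were most frequent in the shortest elements. EC CHH was 0 in 65.2% of genic unmethylated TEs under 100 bp and in none of the 11 of 1000 to under 2000 bp, and in 40.5% of intergenic ones under 100 bp and in none of the 34 of 1000 to under 2000 bp. A short TE holds few cytosines, and the depth beyond the authors' minimum coverage is unknown. A value of 0 therefore does not show that methylation was absent. Low values above 0 have a limit as well. The paper reports nearly but not fully complete bisulphite conversion in both libraries. The estimate, from the unmethylated chloroplast genome, was slightly higher in EC than in leaf. Cytosines left unconverted are counted as methylated, and no correction for this was made here. Whether CHH levels under 1%, and their direction between tissues, reflect methylation was not tested.

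**Figure D2:**
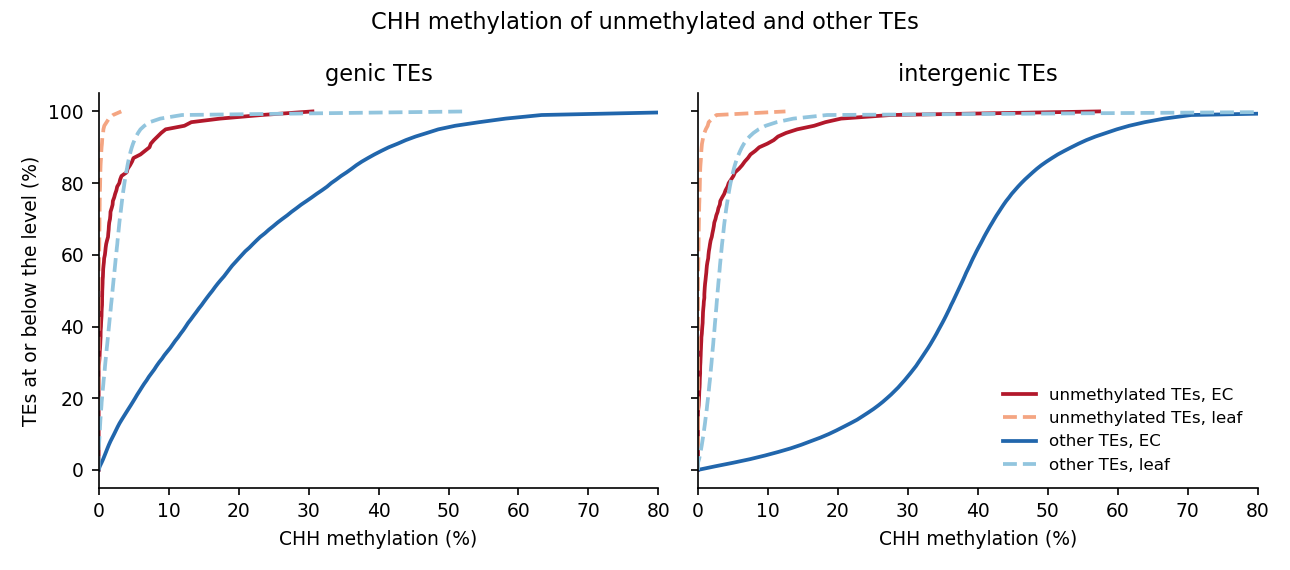
Cumulative distribution of CHH methylation in genic TEs (left) and intergenic TEs (right), with the CHH level in % on the x axis, drawn to 80%, and the percentage of TEs at or below it on the y axis, in red for unmethylated TEs and blue for other TEs listed for CG and CHG, solid for EC and dashed in a lighter shade for leaf. In EC 61.9% of genic and 51.3% of intergenic unmethylated TEs lie under 1%, against 4.79% and 0.430% of other TEs.

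Within the group, EC CHH followed EC CHG more closely than EC CG. Unmethylated TEs with EC CHG at 0 had a mean EC CHH of 1.27% (n = 499), those above 0 to 5% had 2.88% (n = 300), those above 5% to 10% had 8.03% (n = 73) and those above 10% to under 20% had 10.8% (n = 53). By EC CG, mean EC CHH was 1.82% at 0 (n = 300), 1.99% above 0 to 5% (n = 303), 3.19% above 5% to 10% (n = 135) and 5.76% above 10% to under 20% (n = 187). Over the 925 TEs, Spearman's rho with EC CHH was 0.59 for EC CHG, 0.44 for EC CG, 0.29 for leaf CHG, 0.17 for leaf CG and 0.22 for TE length. These are descriptions across TEs of the same library, with no test, and values of 0 were frequent in each measure of methylation. The rule held CG and CHG under 20%, so the rho values and their order describe that range alone. EC CHG was 0 in 499 of the TEs and EC CG in 300.

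**Figure D3:**
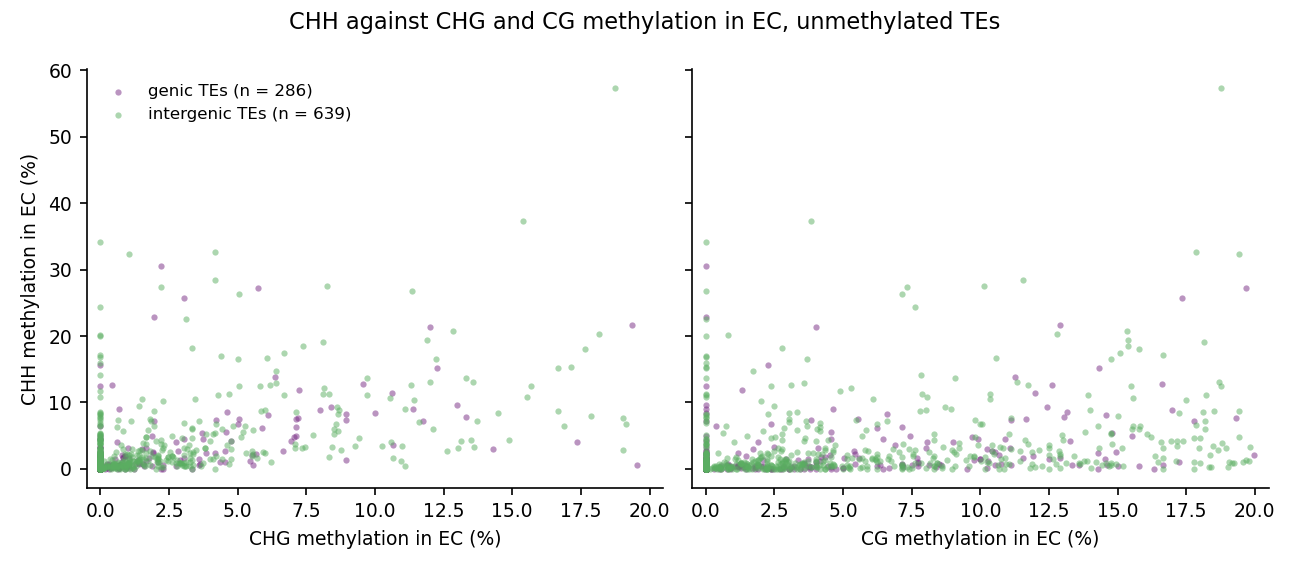
CHH methylation in EC (y axis, %) against CHG methylation in EC (left, x axis, %) and CG methylation in EC (right, x axis, %) for 286 genic and 639 intergenic unmethylated TEs, 1 point per TE. Mean EC CHH is 1.27% where EC CHG is 0 and 10.8% where it is above 10%, and most points lie near the bottom of both panels.

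CHH levels of unmethylated TEs were next set beside those of TEs with CG methylation alone. Genic TEs with CG at 20% or more and CHG under 20% in both tissues had a mean CHH level of 5.01% in EC and 0.501% in leaf (n = 4057). Intergenic TEs of the same state had 10.5% in EC and 0.827% in leaf (n = 1588). TEs with both CG and CHG at 20% or more in both tissues had 26.7% in EC and 3.22% in leaf in the genic class (n = 13193) and 38.4% in EC and 3.70% in leaf in the intergenic class (n = 61223). Mean CHH of unmethylated TEs was thus the lowest of these 3 states in each class and tissue, with CG-only TEs above them and TEs methylated in both contexts above those.

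A few unmethylated TEs went against this order. EC CHH reached at least 20% in 22 of them (2.38%), beside 76.8% of all TEs listed in 3 contexts. The 22 were 6 genic and 16 intergenic TEs, on 14 chromosomes. Their median length was 338.5 bp, from 136 to 1565 bp. Mean EC CHH of the 22 was 27.6% against 1.001% in leaf, and the highest leaf value among them was 5.46%. The 22 were selected by their EC CHH, so that level is a description, and it lies above their EC CG and EC CHG by the choice itself. Leaf CHG was 0 in 14 of the 22 (63.6%), against 632 of the 903 unmethylated TEs with lower EC CHH (70.0%), and leaf CG was 0 in 13 (59.1%), against 516 (57.1%). EC CG was above leaf CG in 15 of the 22 (68.2%), against 477 of the 903 (52.8%), and EC CHG was above leaf CHG in 17 (77.3%), against 336 (37.2%). No test was made of these shares.

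Among unmethylated TEs of at least 500 bp, the highest EC CHH was that of an intergenic TE of 547 bp at chr12:2827375-2827922, at 57.3% in EC and 1.02% in leaf. Its CHG level was 18.75% in EC and 9.38% in leaf, and its CG level was 18.75% in EC and 3.33% in leaf. An intergenic TE of 1333 bp at chr4:4824597-4825930 had CHH at 32.7% in EC and 2.76% in leaf, and no other listed TE lay within 5 kb of it. An intergenic TE of 1565 bp at chr1:9188009-9189574 had CHH at 32.3% in EC and 0.0400% in leaf, while its CHG level was 1.06% in EC and 0% in leaf. These 3 TEs combined high EC CHH with CG close to the limit in EC.

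The genic TEs of at least 500 bp with the highest EC CHH reached lower levels, among 59 such TEs against 175 intergenic ones. The class means went the other way. The mean CHH difference of EC minus leaf at that length was 3.48 percentage points in the genic and 2.85 in the intergenic class. The TE just inside the limit at chr11:1487872-1488799, 927 bp long, had CHH at 27.2% in EC and 0.220% in leaf. A TE of 507 bp at chr19:3040511-3041018 had CHH at 25.7% in EC and 0.290% in leaf, with CHG at 3.06% in EC and 0% in leaf. A TE of 657 bp at chr3:7136980-7137637 had CHH at 15.25% in EC and 0.440% in leaf, with CG at 14.3% in EC and 0% in leaf.

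High CHH also occurred where every CG and CHG value was 0, in 2 short intergenic TEs named after their values were seen. The TE at chr7:7180737-7180873, 136 bp long, had CHH at 34.2% in EC and 5.46% in leaf. The TE at chr10:134255-134643, 388 bp long, had CHH at 20.03% in EC and 0% in leaf. In both, CHH was the sole context with any methylation listed.

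**Figure D4:**
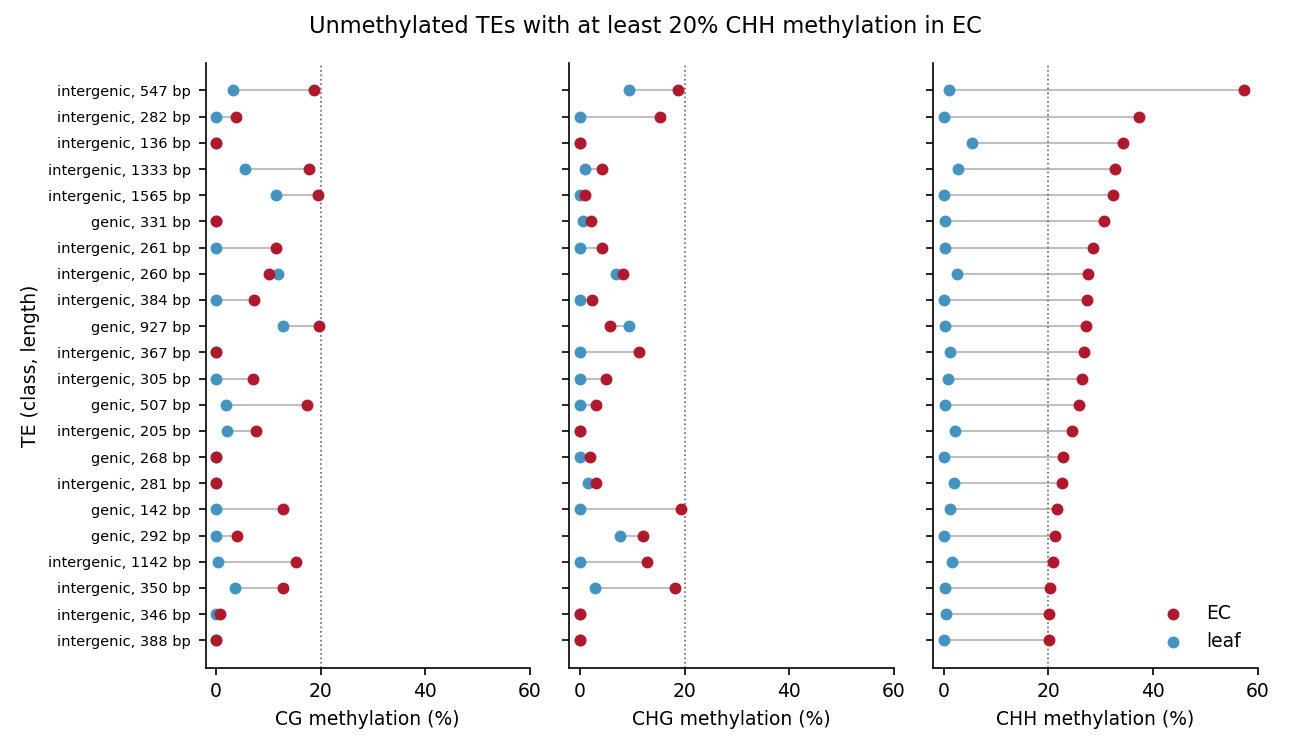
CG, CHG and CHH methylation (x axes, %) of the 22 unmethylated TEs with at least 20% CHH methylation in EC, 1 TE per row, labelled by class and length and ordered by EC CHH, with EC in red (on top where points coincide), leaf in blue and a dotted line at 20%. CG and CHG stay under 20% by definition, while CHH lies from 20.03% to 57.3% in EC and at 5.46% or less in leaf.

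Of the 3 longest intergenic unmethylated TEs, the first and the second had little methylation in any context. The longest, 3132 bp at chr18:1973349-1976481, had CG at 3.26% in EC and 2.63% in leaf, CHG at 0.120% in EC and 0.240% in leaf, and CHH at 0.340% in EC and 0.220% in leaf. The next, 2787 bp at chr10:8311314-8314101, had CG at 8.6% in EC and 5.49% in leaf and CHH at 0.390% in EC and 0.0500% in leaf. The third, 2700 bp at chr6:21293780-21296480, had more methylation, with CG at 18.2% in EC and 13.4% in leaf, CHG at 12.1% in EC and 5.71% in leaf, and CHH at 6.03% in EC and 0.650% in leaf.

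The longest genic unmethylated TE, 1699 bp at chr15:12685939-12687638, had CG at 10.5% in EC and 14.7% in leaf and CHH at 0.600% in EC and 0.120% in leaf. The next, 1540 bp at chr17:14093941-14095481, had CHH at 11.8% in EC and 0.360% in leaf, with CHG at 7.23% in EC and 1.33% in leaf. The third, 1526 bp at chr9:3716478-3718004, had CG at 4.45% in EC and 0.540% in leaf, CHG at 0% in both tissues and CHH at 0.370% in EC and 0.230% in leaf. EC CHH thus ranged from near 0 to above 10% among genic TEs of similar length.

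Among unmethylated TEs of at least 1000 bp, the lowest EC CHH levels were intergenic, in the class with more TEs of that length. The class medians went the other way. From 1000 to under 2000 bp, median EC CHH was 0.600% in 11 genic and 0.945% in 34 intergenic unmethylated TEs. The lowest CHH levels in the intergenic class were 0.0300% in EC and 0.130% in leaf at chr9:5180174-5181388, 0.0500% in EC and 0.530% in leaf at chr5:21412454-21413803, and 0.150% in EC and 0.0600% in leaf at chr9:7270931-7272348. The last of these had CG at 5.23% in EC and 19.6% in leaf. The lowest in the genic class were 0.340% in EC and 0.120% in leaf at chr6:6305826-6307168, 0.360% in EC and 0.120% in leaf at chr5:7575840-7577106, and then those of the TE of 1526 bp on chromosome 9 described above. The intergenic TE on chromosome 5 had 8 listed TEs within 5 kb whose CHH averaged 32.7% in EC and 1.81% in leaf, so low CHH was found beside TEs with the usual EC level.

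The surroundings of unmethylated TEs were described from the listed TEs within 5 kb of them. At least 1 other TE was listed within 5 kb of 901 of the 933 unmethylated TEs (96.6%), with a median of 4 such neighbours, against 99.0% and a median of 6 for other TEs listed for CG and CHG. The nearest listed TE lay a median of 606 bp from genic and 257 bp from intergenic unmethylated TEs, against 100.0 bp and 37.0 bp for other genic and other intergenic TEs. Unmethylated TEs thus stood somewhat more apart from other listed TEs.

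Their neighbours were less methylated in CG and CHG than those of other TEs. Over the 3897 distinct neighbours within 5 kb, mean CG was 72.9% in EC and 70.5% in leaf, mean CHG was 47.2% in EC and 44.9% in leaf, and mean CHH was 28.5% in EC and 2.82% in leaf. Over the neighbours of other TEs, mean CG was 85.6% in EC and 82.7% in leaf, mean CHG was 64.1% in EC and 59.3% in leaf, and mean CHH was 31.1% in EC and 2.80% in leaf. Among neighbours, therefore, the gap was widest for CHG, and leaf CHH was nearly the same. The spread over single neighbours was wide, with a standard deviation of 30.5 percentage points for EC CG. A TE with CG at 80% or more in both tissues lay within 1 kb of 21.97% of unmethylated TEs and within 5 kb of 63.1%, against 62.9% and 87.1% of other TEs.

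The classes differed in their CHG surroundings. Neighbours of genic unmethylated TEs had CHG at 43.8% in EC and 44.99% in leaf, against 44.8% in EC and 52.0% in leaf around other genic TEs. Neighbours of intergenic unmethylated TEs had CHG at 48.3% in EC and 44.5% in leaf, against 70.8% in EC and 61.9% in leaf around other intergenic TEs. For EC CHH the order was turned in the genic class, where neighbours of unmethylated TEs averaged 27.2% and neighbours of other genic TEs 22.1%. Genic TEs made up 48.5% of the neighbours of genic unmethylated TEs and 71.6% of those of other genic TEs, and the part of this difference in the levels was not tested.

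The difference from the surroundings of other TEs narrowed with distance. TEs with a gap of up to 500 bp from an unmethylated TE had mean CG of 48.6% in EC and 47.3% in leaf, and mean CHH of 18.4% in EC and 1.89% in leaf. From 500 to 1000 bp mean CG was 69.4% in EC and 66.7% in leaf, and mean CHH was 29.0% in EC and 3.41% in leaf. From 2 to 5 kb mean CG was 82.3% in EC and 79.3% in leaf, against 86.0% in EC and 82.8% in leaf at that distance from other TEs, and mean CHH was 31.4% in EC and 3.03% in leaf, against 31.2% in EC and 2.78% in leaf. With both classes pooled, mean EC CHH from 2 to 5 kb was thus close to that around other TEs, while mean CG was still lower. Within 5 kb the classes differed in opposite directions. EC CHH of neighbours was 27.2% against 22.1% around other TEs in the genic class, and 29.0% against 34.3% in the intergenic class. Distances were not split by class, so the pooled match does not show that either class reached the level around other TEs. Mean CHG was 56.3% in EC and 53.5% in leaf from 2 to 5 kb and 58.0% in EC and 55.9% in leaf from 10 to 20 kb, below the 64.9% in EC and 59.6% in leaf and the 62.9% in EC and 58.3% in leaf found at those distances from other TEs.

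**Figure D5:**
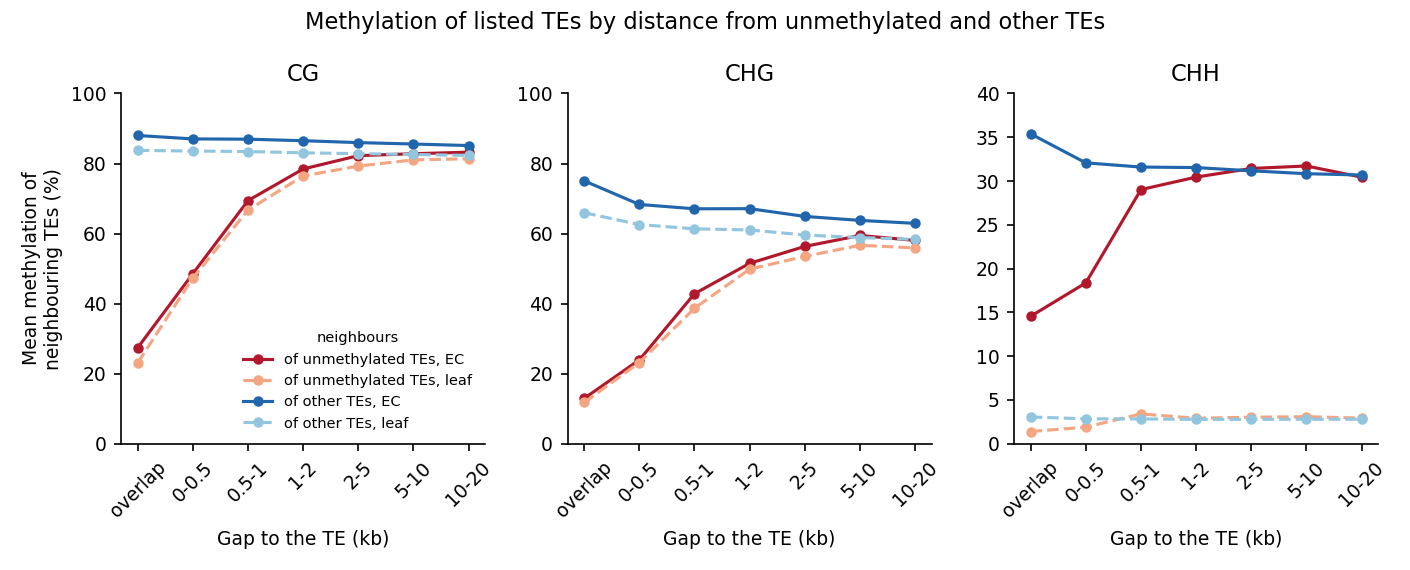
Mean CG, CHG and CHH methylation (y axes, %; CHH drawn to 40%) of listed TEs by their gap in kb from unmethylated TEs (red) and from other TEs listed for CG and CHG (blue), with EC solid and leaf dashed. CG near unmethylated TEs runs from 27.4% in EC among overlapping TEs to 83.2% at 10 to 20 kb, while around other TEs it stays from 85.1% to 88.0%.

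Part of the low methylation nearby came from other unmethylated TEs. Another unmethylated TE lay within 5 kb of 181 of the 933 (19.4%, Wilson 95% interval 17.0 to 22.1), against 1.75% of other TEs. The share was 12.8% for genic and 22.3% for intergenic unmethylated TEs. The interval treats TEs as independent, but an unmethylated TE and its unmethylated neighbour count each other, so it is too narrow. Of the neighbours within 5 kb that had values for CG and CHG, 10.6% were unmethylated themselves, against 0.843% of the neighbours of other TEs. Without these, neighbours with a gap of up to 500 bp still had lower CG, at 64.0% in EC and 62.8% in leaf, than the 87.3% in EC and 83.9% in leaf of the corresponding neighbours of other TEs. Some pairs share sequence, since 45 unmethylated TEs overlapped another unmethylated TE, and their values cannot be taken as independent.

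Most unmethylated TEs had no other TE found to be unmethylated within 5 kb. Only TEs with values for CG and CHG could be found so, which were 1713 of the 3897 distinct neighbours within 5 kb. Joined over gaps of up to 5 kb, they formed 752 sites with a single unmethylated TE, 77 with 2, 5 with 3 and 3 with 4. The sites with 4 were intergenic and compact. On chromosome 3 the 4 TEs lay within 794 bp from 8870464 to 8871258, each overlapping the next, and 2 of them were not listed for CHH. The longest, of 612 bp, had CHG at 11.6% in EC and 3.52% in leaf and CHH at 7.06% in EC and 0.350% in leaf. On chromosome 8 they lay within 1664 bp from 9861997 to 9863661, and the longest, of 506 bp at chr8:9862758-9863264, had CG at 7.56% in EC and 2.72% in leaf and CHH at 1.99% in EC and 0.920% in leaf. On chromosome 6 they overlapped or adjoined each other within 944 bp from 20404846 to 20405790, with a mean CHH of 1.15% in EC and 0.328% in leaf.

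Sites of genic unmethylated TEs held at most 2 of that class. Those with the greatest summed length were led by the TE at chr6:6305826-6307168 named above and by a TE of 1476 bp at chr4:3447570-3449046, whose CG was 4.54% in EC and 3.48% in leaf and whose CHH was 2.02% in EC and 0.130% in leaf.

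EC CHH of unmethylated TEs was also set beside that of their neighbours. Where the mean EC CHH of neighbours within 5 kb was under 10%, unmethylated TEs had a mean EC CHH of 1.31% (n = 131), and where it was 40% or more they had 4.01% (n = 160). The medians were 0.600% and 0.940%, and Spearman's rho over 893 TEs was 0.14, which is weak and given as a description. The share with EC CHH of at least 10% was 2.29% in the first of these bins and 13.1% in the last. Among all TEs listed in 3 contexts it was 88.1%. In unmethylated TEs with no listed TE within 5 kb mean EC CHH was 3.46% and mean leaf CHH 0.283% (n = 32).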

How the data were processed

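Whole-genome bisulphite sequencing libraries of EC and leaf were analysed, 1 per tissue. Reads were aligned by the authors with BS-Seeker2 to the PN40024 12X grapevine assembly, and cgmaptools gave methylation calls and 1 average per TE. TEs had to exceed an effective coverage of 20 in EC and in leaf, and genic TEs were found with BEDtools. The values were deposited as a fraction from 0 to 1 in 6 tables of 2 TE classes and 3 contexts. 2 tables of binned averages were not used.

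Here the fractions were multiplied to percentages, joined by TE and filtered at 20% with Python 3.11.15 and pandas 2.3.3. Starts and ends are printed as deposited. Length was taken as end minus start, because 5873 listed TEs began at the end coordinate of the previous one. Fewer began 1 above it (1454) or 1 below it (2299). A neighbour is a TE listed in any context, and each neighbour was counted once in a mean. The procedures were tested on simulated data.

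The group and the results to compute were chosen with earlier results of these data known. TEs named singly are, per class and among TEs listed in 3 contexts, the 3 longest, the 3 with the highest EC CHH from 500 bp, the 3 with the lowest EC CHH from 1000 bp, the longest in each of the 2 sites with the most unmethylated TEs of the class, and the 2 on each side of the limit. The split into methylation states, the sites, the overlaps and the TEs with high CHH were described after the data had been seen. Ties between sites were broken by summed length, after the data had been seen. Alternatives were limits of 10% and 30%, TEs of at least 500 bp, chromosomes 1 to 19, the longest of overlapping TEs, medians, length weighting, and other sets of neighbours. The planned description of sequence features was not made, because a genome of the 12X assembly was not used here.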

Additional observations from a re-analysis of the deposited data

How the results depend on the processing

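16 values were recomputed under the alternatives, giving 97 values. None changed sign, 87 stayed within 1.5 times of the original (for shares, within its Wilson 95% interval) and 10 moved beyond it. For the share with another unmethylated TE within 5 kb that interval is too narrow, because such TEs count each other. With a limit of 10% the CHH difference of EC minus leaf in genic unmethylated TEs was 1.23 percentage points, and 15.5% of unmethylated TEs had another within 5 kb. TEs of at least 500 bp left 59 genic and 175 intergenic unmethylated TEs by construction, of which 25.2% were genic, with a CHH difference of 3.48 in the genic class. Medians gave CHH differences of 0.455 (genic) and 0.880 (intergenic). The share with another unmethylated TE within 5 kb was 15.03% over the longest of overlapping TEs and 15.5% without overlapping neighbours, both of which remove pairs by construction. For the other moves the cause was not tested. No paired analysis was possible because there is 1 library per tissue, and for the same reason no library could be left out. The depth, unknown beyond the coverage filter, limits all levels, most of all values of 0 in short TEs. Incomplete bisulphite conversion limits the lowest CHH levels and small differences between tissues, including those of TEs named singly.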

Other observations

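Overlap with other TEs was less frequent in unmethylated TEs than in the rest. Of the 933 unmethylated TEs, 125 (13.4%) overlapped another listed TE, against 26.0% of other TEs. Unmethylated TEs were also shorter, with a median of 264 bp against 727 bp, and the part of length in this difference was not tested. The 133 TEs they overlapped had mean CG of 27.4% in EC and 23.1% in leaf, and mean CHG of 12.9% in EC and 11.8% in leaf. As 45 of these are unmethylated TEs themselves, and low by definition, the values without them were higher, with CG at 50.8% in EC and 44.7% in leaf and CHG at 21.7% in EC and 20.4% in leaf.

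In 6 cases, singled out after their values were seen, the overlapping TE had CG of 80% or more in both tissues. In 5 of the cases the shared stretch ran from 1 to 193 bp. In the sixth, an intergenic unmethylated TE of 831 bp at chr19:8686034-8686865 had CG at 3.01% in EC and 1.12% in leaf and CHH at 0.970% in EC and 0.100% in leaf. It shared 527 bp with an intergenic TE of 1096 bp at chr19:8686338-8687434, which had CG at 91.2% in EC and 87.4% in leaf and CHH at 70.6% in EC and 10.3% in leaf.

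CHH in leaf reached 10% in 1 unmethylated TE. This intergenic TE of 321 bp at chr1:21177316-21177637 had CHH at 17.5% in EC and 12.5% in leaf, with CHG at 6.67% in EC and 0.980% in leaf and CG at 15.1% in EC and 0% in leaf.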
